A study of Mus musculus with 12 samples.

Results

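The 2-oxoglutarate dependent dioxygenases are enzymes that bind iron and use oxygen and 2-oxoglutarate, an intermediate of the citric acid cycle, to hydroxylate or demethylate DNA, RNA, histones, collagen and other proteins. A list of 46 of their genes was described here by symbol, across 12 libraries from E14 mouse embryonic stem cells in 2-dimensional culture. Of the 46, 45 had a row in the count table of 53819 symbols, Tmlhe had no row under that symbol and is not analysed here, and 43 passed the filter on low counts. The libraries fall in 4 groups of 3: untreated control cells, cells treated with proline for 72 h, cells treated with budesonide for 72 h, and cells treated with proline and budesonide together for 72 h. No time is given for the control cells. E14 is an established line of mouse embryonic stem cells, proline is the amino acid, and budesonide is a synthetic glucocorticoid. All cells are of this 1 line, the labels give no doses, and nothing in the labels says that replicates came from separate cultures, so the p-values rest on the spread among these libraries alone, and that spread may be technical.

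Many of these enzymes need vitamin C, which keeps their iron reduced. In embryonic stem cells the Tet enzymes oxidise 5-methylcytosine in DNA and the JmjC histone demethylases remove methyl marks from chromatin, and both are linked to the naive state of pluripotency. Collagen prolyl hydroxylases use the same cofactors to modify proline residues of collagen, and proline is known to move embryonic stem cells out of the naive state into a primed and more mesenchymal one, which vitamin C counters. Messenger RNA levels, which were measured here, say nothing of enzyme activity.

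The libraries held 5299432 to 15921283 counts, and proline 1 was the deepest. Levels are given as CPM, the count relative to the library's total after scaling by TMM, and changes as log2 differences between groups with a standard error (SE). A gene is called, and its level is written to have risen or fallen, where the Benjamini-Hochberg adjusted p of the edgeR quasi-likelihood test over 13852 genes was below 0.05. Of the tested genes, 6.57% in control 3 and 8.43% in budesonide 3 were without a count, the highest shares of the 12 libraries. The stem cell markers were present, with all 7 of the list tested and a summed level of 2044 to 2518 CPM in control, 1736 to 1916 after proline, 1923 to 2223 after budesonide and 2157 to 2250 after both. Pou5f1, whose pseudogene copies can take its reads, stood at only 20.8 to 36.4 CPM. Esrrb, Nanog and Zfp42 fell with proline, by −1.66 ± 0.14, −0.97 ± 0.15 and −1.36 ± 0.16 (adjusted p = 3.68e-08, 9.62e-05 and 6.00e-06), and were higher with both than with proline, by 1.52 ± 0.14, 1.33 ± 0.15 and 1.10 ± 0.16 (1.31e-07, 1.93e-06 and 8.32e-05). Utf1 of the same list was lower with both than with proline (adjusted p = 5.98e-05). It was also lower with budesonide (0.00724) and with both (0.0109) than in control. These calls held under 13, 11 and 10 of the 13 alternatives run for each. Pou5f1, Sox2 and Dppa5a were not called in any comparison. The mitochondrial share of counts was 5.51 to 5.79% in the proline libraries, below the 7.31 to 8.03% of the 9 others. Of 9 fibroblast markers 4 were tested, Lum and Postn had no count in any group, and the sum was 12.6 to 19.0 CPM in control, 16.5 to 21.9 after proline, 5.93 to 7.75 after budesonide and 4.61 to 10.1 after both. Of 7 primitive endoderm markers 6 were tested, with sums of 9.72 to 13.6 CPM in control, 23.8 to 26.8 after proline, 5.40 to 14.4 after budesonide and 15.2 to 22.9 after both. Of 7 trophoblast markers 6 were tested, with sums of 46.1 to 53.4, 34.5 to 51.1, 55.3 to 83.5 and 80.1 to 103.8 CPM in the same order of groups, and Elf5 had no count in the treated groups. Of 5 neural markers 4 were tested, with sums of 52.9 to 61.5, 42.8 to 50.2, 64.9 to 73.5 and 72.6 to 90.7 CPM. Tubb3 of this list was lower with proline than in control and higher with both than with proline. Pax6 was higher with both than in control. Among the other lists, Sox17 of primitive endoderm was called higher with proline and with budesonide than in control. Sox17 was not called among the 4 groups together. Tfap2c of trophoblast was higher with both than with proline and than in control. Thy1 of the fibroblast list was lower in the same comparisons. Of 5 mesoderm markers only Kdr was tested, and it was not called. The mesoderm sums were 4.75 to 10.2, 0.654 to 4.72, 2.93 to 6.72 and 1.61 to 5.998 CPM. The part of these markers and of the mitochondrial share in the results below was not tested. In bulk samples fewer cells of a type and less RNA per cell cannot be told apart.

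Proline lowered Tet1, Tet2, Alkbh8 and Kdm5b and raised Egln3, 5 of 43 tested members (11.6%), where 7.88% of all tested genes were called (3.17% higher and 4.71% lower). Budesonide alone raised Alkbh1 and Kdm6b, 2 of 43 (4.65%), where 6.51% of all genes were called (2.51% higher and 4% lower). With both compounds against proline alone 7 members were higher and none lower, 16.3% against 10.1% of all genes (5.83% higher and 4.27% lower): Tet1, Tet2, Kdm3a, Kdm5b, P4ha1, Alkbh1 and Alkbh8. Against control, cells with both compounds had 1 member called, Phf8, which was higher (2.33%, with 7.17% of all genes called, 3.34% higher and 3.83% lower). Against budesonide alone they also had 1, Tet1, which was lower (2.33%, with 1.47% of all genes called, 0.874% higher and 0.592% lower). The 4 members lowered by proline are all among the 7, and these comparisons share the proline libraries. The naive stem cell markers Esrrb, Nanog and Zfp42 were likewise lower with proline and higher with both than with proline. Utf1, of the same marker list, was instead lower with both than with proline, and its difference with proline was not called.

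The median log2 change of the 43 members was 0.02 with proline, 0.15 with budesonide and 0.17 with both against proline, beside −0.01, 0.01 and 0.02 for all genes tested. In the test of any difference among the 4 groups 10 members passed (23.3%, with 20.4% of all genes called), so the list as a whole was called about as often as other genes. The interaction, which is the proline effect with budesonide minus the proline effect without it, called no member in edgeR (0.469% of all genes were called, 0.411% with a positive and 0.0578% with a negative value), with 6 members at an unadjusted p below 0.05 and 3 members called in DESeq2. The groups' libraries did not overlap for 23.3% of the members with proline (26.7% of all genes), 20.9% with budesonide (23.7%), and 39.5% with both against proline (31.9%). For both against control it was 32.6% (28.4%), and for both against budesonide 23.3% (19.4%).

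**Figure D1:**
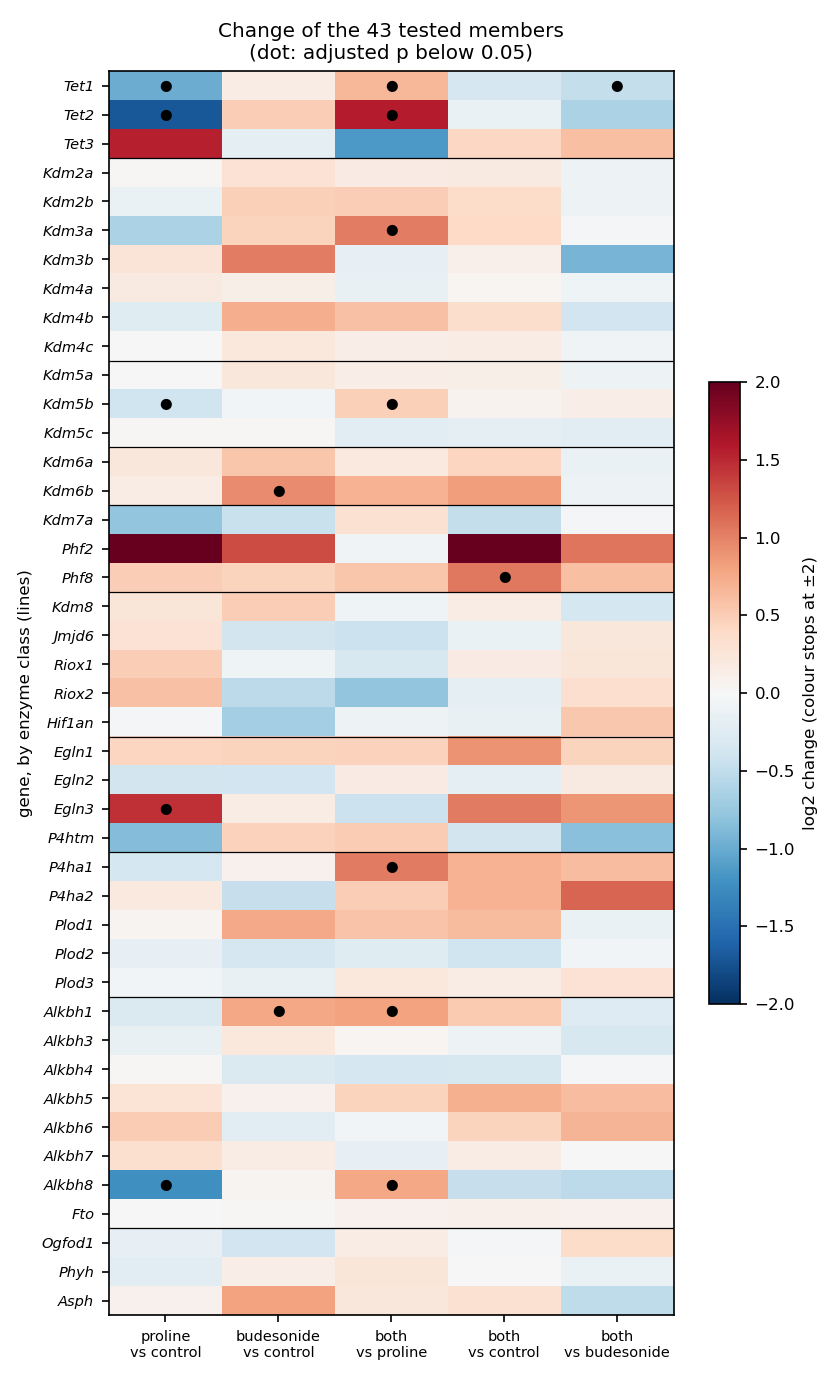
Log2 change of the 43 tested members (rows, grouped by enzyme class, with lines between classes) in 5 comparisons (columns). Red is higher and blue lower in the group named first, colours stop at 2 on the log2 scale, and dots mark an adjusted p below 0.05. The 7 dots of both against proline are all on red cells, and 4 of the 5 dots of proline against control are on blue cells.

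The DNA demethylation enzymes came first by size of the test statistic. The Tet enzymes start the removal of DNA methylation, and Tet1 and Tet2 are the forms known from naive embryonic stem cells. The 250 bases before the most upstream RefSeq start of both genes are printed here because these are the 2 members with the smallest p-values over the 4 groups (GRCm38.p6, minus strand; chr10:62887325-62887574 for Tet1 and chr3:133544391-133544640 for Tet2). Capitals mark ACGTG or GCGTG on either strand, the core of the hypoxia response element, which is described below with the hypoxia genes.
Tet1: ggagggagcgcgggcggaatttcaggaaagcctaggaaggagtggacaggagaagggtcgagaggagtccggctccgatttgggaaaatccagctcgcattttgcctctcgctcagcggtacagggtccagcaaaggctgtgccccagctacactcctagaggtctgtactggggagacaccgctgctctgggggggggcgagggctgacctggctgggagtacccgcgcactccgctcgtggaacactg
Tet2: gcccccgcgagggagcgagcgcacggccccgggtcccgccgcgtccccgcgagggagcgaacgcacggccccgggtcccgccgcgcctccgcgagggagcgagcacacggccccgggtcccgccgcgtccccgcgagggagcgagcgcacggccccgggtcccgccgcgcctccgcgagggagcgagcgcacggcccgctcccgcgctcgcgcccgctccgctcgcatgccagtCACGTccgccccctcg

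Tet1 stood at 575, 560 and 482 CPM in control, 256, 256 and 299 with proline, 554, 589 and 646 with budesonide, and 425, 458 and 398 with both compounds. All proline libraries lay below all others, and the libraries with both lay between the proline libraries and the rest. The fall with proline was −0.996 ± 0.112 (SE; adjusted p = 2.21e-06), and −0.67 with an offset for transcript length (adjusted p = 0.000181). With both compounds Tet1 was higher than with proline alone by 0.66 ± 0.11 (adjusted p = 0.000345) and lower than with budesonide alone by −0.48 ± 0.11 (adjusted p = 0.0279). Against control it differed by −0.34 ± 0.11, with no overlap of libraries, and was not called (adjusted p = 0.0697). That difference was called lower in DESeq2 (adjusted p = 0.0171), without control 3 (0.0363), without control 3 and budesonide 3 together (0.0228) and with an offset for transcript length (0.0327). With the length offset the change of both against proline was 0.30 and not called (adjusted p = 0.0767), and the difference from budesonide alone was −0.26 (0.291). The difference from budesonide alone also ended as a call with the replicate block (0.0591), without budesonide 2 (0.0654), budesonide 3 (0.12), both 1 (0.119), both 2 (0.0525) or both 3 (0.151).

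Tet2 showed the widest change of the called members. It stood at 106, 98.1 and 65.7 CPM in control, 22.1, 33.7 and 27.6 with proline, 156, 114 and 110 with budesonide, and 83.7, 88.5 and 73.0 with both. The proline libraries lay far below all others, the budesonide libraries above all others, and the libraries with both compounds within the control range. The changes were −1.70 ± 0.20 with proline (adjusted p = 4.66e-06) and 1.56 ± 0.20 for both against proline (adjusted p = 1.61e-05). These 2 calls held under each of the 13 alternatives run for each, with log2 values of −1.90 to −1.54 and 1.33 to 1.72. Budesonide alone gave 0.50 ± 0.19, which was not called (adjusted p = 0.134). The interaction of Tet2 was 1.07 ± 0.28 (adjusted p = 0.105), and it was called in DESeq2 (0.0221), with no low-count filter (0.00807), without control 3 (0.0172) and without control 3 and budesonide 3 together (0.0324).

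Tet3, the form that is known from the egg and from differentiating cells, was rare. It stood at 1.64, 6.17 and 0.463 CPM in control, 8.83, 9.92 and 5.42 with proline, 6.09, 0.775 and 0.132 with budesonide, and 2.92, 3.36 and 4.54 with both. The proline libraries overlapped with control 2, and the log2 difference of 1.56 ± 0.92 was not called (adjusted p = 0.384).

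**Figure D2:**
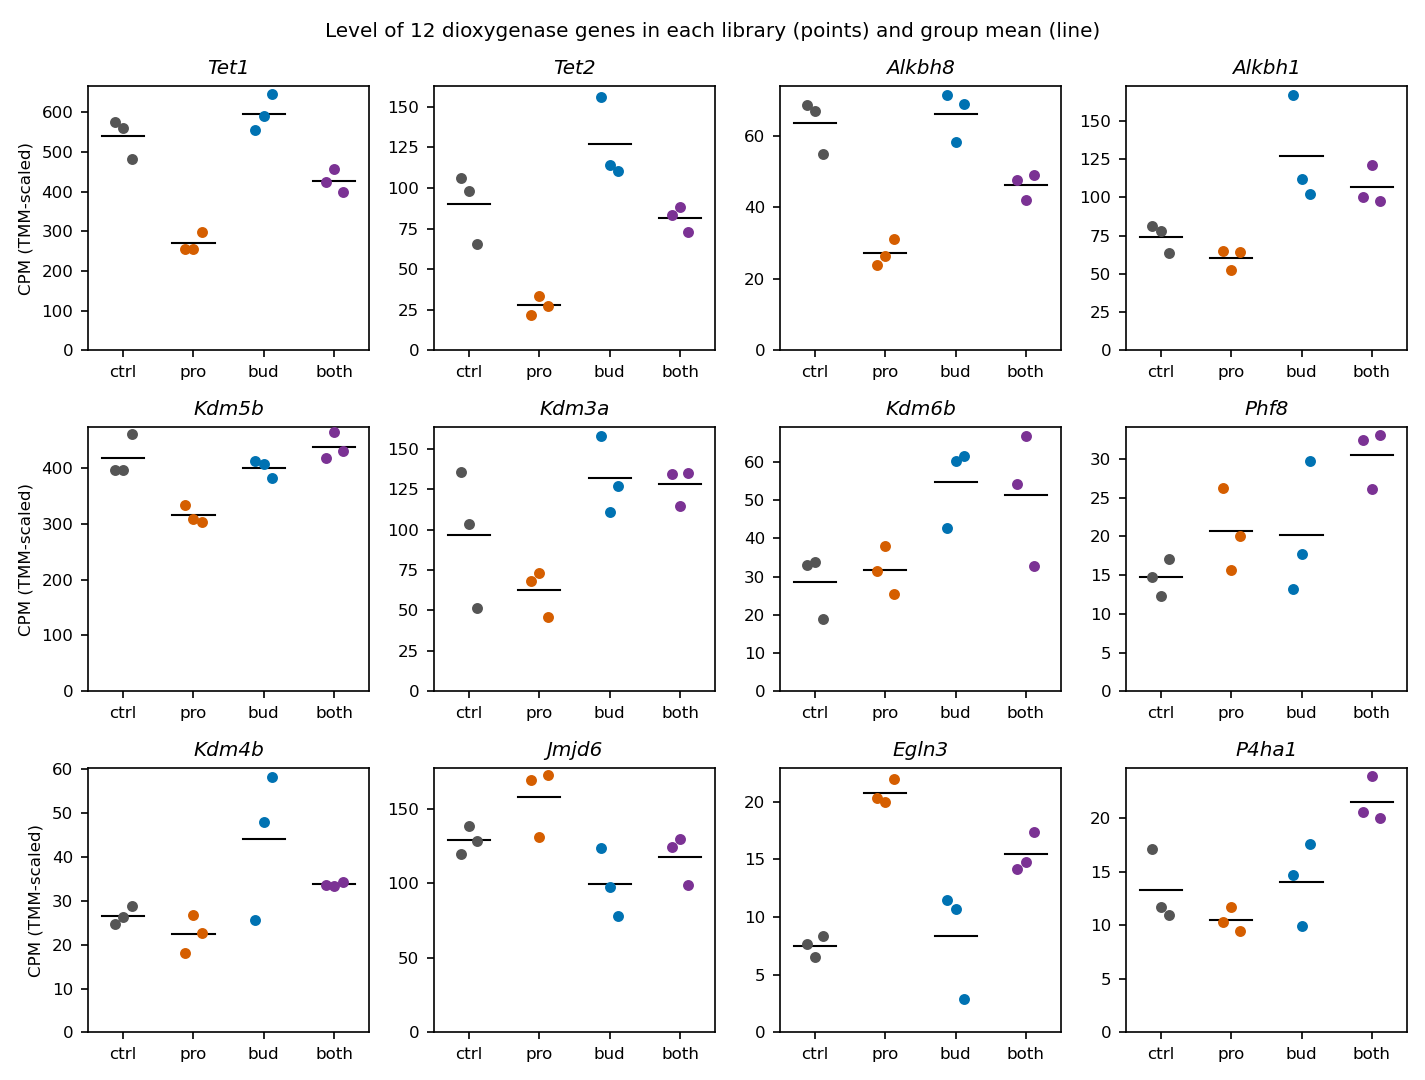
CPM (TMM-scaled) of the 10 members called in a comparison of groups and of Kdm4b and Jmjd6, which were called only among the 4 groups together. Points are libraries 1 to 3 of control (ctrl), proline (pro), budesonide (bud) and both, lines are group means, and each axis starts at 0. Tet1, Tet2, Alkbh8 and Kdm5b are lowest with proline, and Egln3 is highest there.

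Among the histone demethylases, Kdm5b, Kdm3a, Kdm6b and Phf8 passed the test in a comparison of groups. Kdm5b, which removes the promoter mark of active genes, stood at 395, 395 and 460 CPM in control, 333, 309 and 302 with proline, 411, 407 and 382 with budesonide, and 417, 465 and 430 with both. Only the proline libraries stood apart, below all 9 others. The change was −0.40 ± 0.11 with proline (adjusted p = 0.0176) and 0.47 ± 0.11 for both against proline (adjusted p = 0.00449). Both calls ended with the length offset, at −0.27 and 0.26 (adjusted p = 0.160 for each). The proline call also ended without control 3 (0.081), proline 2 (0.0639) or proline 3 (0.0852), and without control 3 and budesonide 3 together (0.0558). Its relatives Kdm5a and Kdm5c kept within −0.21 and 0.22 on the log2 scale in all 5 comparisons, with no call.

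Kdm3a, which removes a repressive mark of heterochromatin and is a known target of hypoxia signalling, stood at 135, 103 and 51.7 CPM in control, 68.0, 73.4 and 46.3 with proline, 158, 111 and 127 with budesonide, and 134, 115 and 135 with both. The control libraries were spread widely, and control 3 lay among the proline libraries. The rise of both against proline was 1.03 ± 0.24 (adjusted p = 0.00590) and held under all 13 alternatives. The proline difference of −0.63 ± 0.24 was not called (adjusted p = 0.123), but was called without control 3 (−0.93, adjusted p = 0.00226), without control 3 and budesonide 3 together (0.00129) and with no low-count filter (0.00487).

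Kdm6b, which removes the mark laid down by Polycomb, stood at 33.1, 33.9 and 18.8 CPM in control, 31.3, 37.9 and 25.6 with proline, 42.7, 60.3 and 61.4 with budesonide, and 54.3, 66.7 and 32.8 with both. The budesonide libraries lay above all control and proline libraries, while both 3 fell inside the control range. The rise with budesonide was 0.94 ± 0.27 (adjusted p = 0.0343). It was not called with the length offset (0.0939), without control 3 (0.156), budesonide 2 (0.0965) or budesonide 3 (0.103), without control 3 and budesonide 3 together (0.269), or with only the 6 libraries of these groups (0.0664). With both compounds Kdm6b differed from control by 0.84 ± 0.27 and was not called (adjusted p = 0.0570). Kdm6b was called higher there in DESeq2 (0.0302), with no low-count filter (0.00885), with the replicate block (0.0453) and without both 3 (0.0169). Its relative Kdm6a, on the X chromosome, went from 43.8 ± 6.31 to 64.6 ± 3.48 CPM with budesonide (SD, n = 3), a difference of 0.56 without overlap that was not called (adjusted p = 0.0678) and was called in DESeq2 (0.0279).

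Phf8, a demethylase of repressive marks, was the only member called between both compounds and control. It stood at 14.7, 12.3 and 17.1 CPM in control, 26.2, 15.7 and 20.0 with proline, 13.2, 17.7 and 29.8 with budesonide, and 32.4, 26.2 and 33.1 with both. The libraries with both lay above all control libraries, and those of each single compound overlapped with control. The change was 1.05 ± 0.30 (adjusted p = 0.0359), and the call ended with the length offset (0.0576) and without control 1 (0.0906), control 2 (0.137), both 1 (0.121), both 2 (0.062) or both 3 (0.105).

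Kdm4b and the hydroxylase Jmjd6 passed only the test among the 4 groups together (adjusted p = 0.0319 and 0.0278). Kdm4b ran from 18.1 to 26.6 CPM with proline and from 25.7 to 58.2 with budesonide, where the 3 libraries were far apart. Jmjd6 ran from 131 to 173 CPM with proline and from 78.1 to 124 with budesonide. The other histone demethylases, Kdm2a, Kdm2b, Kdm3b, Kdm4a, Kdm4c, Kdm7a and Phf2, were not called in any comparison. The largest difference among them belonged to Phf2, which had 1 to 80 counts per library and stood at 0.908 ± 0.831 CPM in control and 5.02 ± 1.08 with proline (SD, n = 3; 2.45 ± 0.97, adjusted p = 0.143). Kdm3b went from 11.3 ± 3.80 to 23.1 ± 3.30 CPM with budesonide (1.03 ± 0.33, adjusted p = 0.0661; 0.0301 in DESeq2). Kdm8, Riox1 and Riox2, JmjC proteins that hydroxylate other proteins, were not called either.

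The next group hydroxylates the hypoxia-inducible factor (HIF). The Egln enzymes mark it on proline residues for destruction when oxygen is present, Hif1an blocks its activation on an asparagine residue, and Egln3 is itself a known HIF target. Egln3 stood at 7.69, 6.55 and 8.33 CPM in control, 20.3, 20.0 and 22.0 with proline, 11.5, 10.7 and 2.90 with budesonide, and 14.1, 14.8 and 17.3 with both. The proline libraries lay above all others and the libraries with both came next, also above control and budesonide. The rise with proline was 1.46 ± 0.39 (adjusted p = 0.0215), and the call ended without control 1 (0.0685), control 2 (0.0915), proline 1 (0.0595) or proline 3 (0.0716). The difference of both against proline was −0.43 ± 0.38 and was not called (adjusted p = 0.567), although the libraries did not overlap. Egln1, Egln2, P4htm and Hif1an were not called. Hif1an stood at 35.7, 52.8 and 43.03 CPM in control and 27.9, 22.5 and 31.6 with budesonide, without overlap. That difference was −0.68 (adjusted p = 0.0734), and it was called in DESeq2 (0.0396) and with the length offset (0.0291).

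Of 25 listed genes of HIF and its targets 23 were tested. With proline 5 rose and none fell (median 0.18), with budesonide 2 rose and 1 fell (median 0.00), and with both against proline 2 rose and 2 fell (median 0.15). The shares called were 21.7%, 13% and 17.4%, beside 7.88%, 6.51% and 10.1% of all genes, whose medians were −0.01, 0.01 and 0.02. Lactate dehydrogenase Ldha changed by 0.60 ± 0.11, −0.52 ± 0.11 and −0.80 ± 0.11 in these comparisons (adjusted p = 0.000602, 0.00369 and 2.24e-05). The transcription factor Bhlhe40 changed by 1.76 ± 0.53, 2.47 ± 0.53 and 1.73 ± 0.48 (adjusted p = 0.0416, 0.00543 and 0.0207), and its proline call ended under 8 of 13 alternatives (adjusted p up to 0.171), among them the removal of control 1, control 2, control 3, proline 1 or proline 3. The budesonide call of Bhlhe40 ended with only the 6 libraries of those groups (0.0571), and the third without proline 2 (0.1005), both 2 (0.0815) or both 3 (0.0723).

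The promoters of 3 called members known as HIF targets (Egln3, Kdm3a and P4ha1) are shown because hypoxia signalling can act through a short motif in promoters. Other called members may be targets as well, and the elements in use may lie outside these windows. Each line is the 250 bases before the most upstream RefSeq start (GRCm38.p6; chr12:54203875-54204124 minus strand for Egln3, chr6:71632918-71633167 minus strand for Kdm3a and chr10:59323046-59323295 plus strand for P4ha1), with ACGTG or GCGTG on either strand in capitals.
Egln3: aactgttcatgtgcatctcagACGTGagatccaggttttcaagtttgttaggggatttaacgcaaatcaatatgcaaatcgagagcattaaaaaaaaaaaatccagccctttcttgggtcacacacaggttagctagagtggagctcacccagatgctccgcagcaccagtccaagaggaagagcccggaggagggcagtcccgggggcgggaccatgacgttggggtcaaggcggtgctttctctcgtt
Kdm3a: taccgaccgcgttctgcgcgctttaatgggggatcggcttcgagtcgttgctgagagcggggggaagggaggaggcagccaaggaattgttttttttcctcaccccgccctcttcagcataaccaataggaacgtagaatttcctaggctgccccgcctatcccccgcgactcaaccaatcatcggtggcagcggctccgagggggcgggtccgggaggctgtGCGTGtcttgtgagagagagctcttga
P4ha1: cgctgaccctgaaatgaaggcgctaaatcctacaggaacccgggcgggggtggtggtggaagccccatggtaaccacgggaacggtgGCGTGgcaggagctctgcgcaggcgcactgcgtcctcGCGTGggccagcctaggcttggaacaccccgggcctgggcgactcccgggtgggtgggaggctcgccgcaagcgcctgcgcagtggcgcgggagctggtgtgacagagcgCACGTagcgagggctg

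The windows of Egln3 and Kdm3a each held 1 match, that of P4ha1 held 3, that of Tet2 held 1 and that of Tet1 none. Of the 38 members with a promoter listed by RefSeq, 22 held a match (57.9%), beside 38.6% of 27025 genes, and the mean GC content was 60.3% beside 53.0%. A match is a string of letters and no shown binding site. Egln3 was called with proline against control, and Kdm3a and P4ha1 with both compounds against proline, where Egln3 differed by −0.43 without a call. For both against control the differences were 1.03 for Egln3, 0.40 for Kdm3a and 0.69 for P4ha1, with none called. Shared control of these genes was not tested.

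The collagen hydroxylases consist of the prolyl hydroxylase subunits P4ha1 to P4ha3, which stabilise the collagen triple helix, and the lysyl hydroxylases Plod1 to Plod3, which prepare collagen for crosslinking. P4ha1 stood at 17.2, 11.8 and 10.9 CPM in control, 10.3, 11.7 and 9.45 with proline, 14.7, 9.92 and 17.6 with budesonide, and 20.6, 24.0 and 20.0 with both. The libraries with both lay above all others, and those of the remaining groups overlapped. The rise against proline was 1.04 ± 0.31 (adjusted p = 0.0346). It rested on each library: the call ended without proline 1 (0.111), proline 2 (0.0678), proline 3 (0.12), both 1 (0.0934), both 2 (0.139) or both 3 (0.0656), and also with the replicate block (0.0521) and no low-count filter (0.0741). P4ha2 stood at 0 to 8.54 CPM with no call, and P4ha3 had 2 counts in control 1 and none in the other 11 libraries, where a count of 0 allows up to 0.196 to 0.578 CPM depending on the depth.

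Plod1 stood at 14.4, 12.5 and 14.96 CPM in control, 16.0, 12.3 and 15.3 with proline, 27.9, 22.2 and 20.9 with budesonide, and 20.6, 21.6 and 22.7 with both. All 6 libraries with budesonide lay above the 6 without it, but no comparison was called (budesonide against control 0.76, adjusted p = 0.0923, and 0.0431 in DESeq2). Plod2 and Plod3 were not called. With proline no collagen prolyl or lysyl hydroxylase of the list was called, and the log2 differences ran from −0.35 to 0.20. Of 21 listed collagens and partners in collagen processing 13 were tested, and 1 rose and 1 fell with proline, 1 rose and 3 fell with budesonide, and 1 rose and 1 fell for both against proline. These were 15.4%, 30.8% and 15.4% of those tested, beside 7.88%, 6.51% and 10.1% of all genes. P4hb, the disulphide isomerase that pairs with the P4ha subunits, was higher with both than with budesonide (0.70 ± 0.12, adjusted p = 0.00249) under all 13 alternatives. It was also called higher with proline (0.38 ± 0.12, adjusted p = 0.0493) and lower with budesonide (−0.39 ± 0.12, adjusted p = 0.0481) than in control. The first call held under 3 of 13 alternatives and the other under 2 of 13, and each ended when any 1 library of the groups compared was left out (adjusted p up to 0.144 and 0.223). Col4a1, a collagen of basement membrane, was higher with both than with proline (0.93 ± 0.24, adjusted p = 0.0127), a call that ended without proline 3 (0.0543) or both 3 (0.0762). Sparc was the gene of this list that was lower in that comparison (adjusted p = 0.00776), called under all 13 alternatives.

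The AlkB family repairs or demethylates nucleic acids. Alkbh8, which modifies the wobble base of transfer RNA, stood at 68.7, 67.1 and 54.9 CPM in control, 23.9, 26.3 and 31.3 with proline, 71.6, 58.3 and 68.9 with budesonide, and 47.8, 42.1 and 49.1 with both. The order was that of Tet1: proline lowest, both compounds next, and control and budesonide overlapping above them. The changes were −1.23 ± 0.19 with proline (adjusted p = 0.000110), called under all 13 alternatives, and 0.77 ± 0.19 for both against proline (adjusted p = 0.00794), which ended without proline 1 (0.69, adjusted p = 0.0564). The differences of both from control (−0.46 ± 0.18, adjusted p = 0.149) and from budesonide (−0.52 ± 0.18, adjusted p = 0.186) were not called.

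Alkbh1, which acts on DNA and transfer RNA, stood at 81.5, 77.9 and 63.7 CPM in control, 64.9, 52.5 and 64.6 with proline, 167, 112 and 102 with budesonide, and 100, 121 and 97.9 with both. All 6 libraries with budesonide lay above the 6 without it. The change was 0.77 ± 0.18 for budesonide against control (adjusted p = 0.00959) and 0.81 ± 0.18 for both against proline (adjusted p = 0.00430), comparisons that share no library. The first ended without budesonide 1 (0.53, adjusted p = 0.0906), the library with the highest value. The last 500 bases of Alkbh1 transcripts overlap those of Slirp on the opposite strand in the GENCODE annotation, the strand setting of the counting is not given in the sources used here, and Slirp was at a mean of only 0.0445 to 0.186 CPM in the 4 groups. Whether the counting told reads of these 2 genes apart is not known, and the Alkbh1 values are uncertain for that reason.

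The RNA demethylase genes Fto and Alkbh5, which remove methyl groups from adenosine in messenger RNA, were not called. Fto stood at 51.2 ± 0.858 CPM in control, 51.4 ± 3.43 after proline, 51.9 ± 14.8 after budesonide and 54.9 ± 2.73 after both (SD, n = 3), and its log2 differences were 0.01 to 0.10. Alkbh5 was at 56.0, 53.8 and 25.4 CPM in control, 45.3, 55.8 and 61.8 with proline, 52.3, 42.0 and 49.0 with budesonide, and 70.3, 82.2 and 68.6 with both, so that the libraries with both lay above all others. Its difference from control was 0.71 ± 0.23 (adjusted p = 0.0621), called in DESeq2 (0.0348), with no low-count filter (0.0147) and without control 1 (0.0409). Alkbh3, Alkbh4, Alkbh6 and Alkbh7 were not called, and Alkbh2 had 0 to 10 counts per library and was not tested.

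The remaining members Ogfod1, Phyh and Asph were not called. Asph, which hydroxylates aspartate and asparagine residues, went from 25.5 ± 4.75 to 44.7 ± 14.1 CPM with budesonide (SD, n = 3; 0.81, adjusted p = 0.0770), and was called in DESeq2 (0.0435), with no low-count filter (0.0394) and without budesonide 1 (0.0454). The 3′ ends of Kdm2b, Riox2, Egln2, Alkbh2, Alkbh3 and Asph also overlap another gene, so their counts carry the same doubt as Alkbh1.

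Cofactor supply was described from a list of 28 genes of 2-oxoglutarate and proline metabolism, all tested. With proline 2 rose and 2 fell, with budesonide 3 rose and 2 fell, and with both against proline 2 rose and 2 fell. These were 14.3%, 17.9% and 14.3% of the list, beside 7.88%, 6.51% and 10.1% of all genes. Idh2, which makes 2-oxoglutarate in mitochondria, stood at 70.5, 76.3 and 68.8 CPM in control, 45.7, 42.2 and 51.3 with proline, 104, 107 and 115 with budesonide, and 111, 112 and 98.3 with both. Its changes were −0.63 ± 0.15 with proline (adjusted p = 0.00764) and 1.21 ± 0.15 for both against proline (adjusted p = 7.09e-06), called under all 13 alternatives each. The rise of Idh2 with budesonide alone was 0.60 ± 0.15 (adjusted p = 0.0133) and ended without control 1, without budesonide 3, or without control 3 and budesonide 3 together (adjusted p up to 0.0920). Psat1, which makes 2-oxoglutarate in serine synthesis, fell with proline by −0.65 ± 0.13 (adjusted p = 0.00185) and was lower again with both against proline by −0.56 ± 0.13 (0.00533, and 0.0501 without both 2).

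Of 20 genes for vitamin C and iron 18 were tested. With proline 2 rose and 2 fell, with budesonide 2 rose and 1 fell, and with both against proline 4 rose and 1 fell. These were 22.2%, 16.7% and 27.8% of those tested, beside 7.88%, 6.51% and 10.1% of all genes. Slc23a2, a vitamin C transporter, stood at 11.9, 10.6 and 3.55 CPM in control, 6.21, 3.40 and 11.1 with proline, 19.3, 14.1 and 8.03 with budesonide, and 22.0, 22.5 and 22.0 with both. The libraries with both lay above all others, by 1.68 ± 0.45 against proline (adjusted p = 0.0167), a call that ended without proline 1 (0.0709), proline 2 (0.0870), both 1 (0.0502) or both 2 (0.0523). Slc2a3, a transporter of glucose that can also carry oxidised vitamin C, was at 416 ± 46.5 CPM in control, 302 ± 5.04 after proline, 659 ± 60.2 after budesonide and 833 ± 113 after both (SD, n = 3), and its change for both against proline was 1.46 ± 0.12 (adjusted p = 1.68e-08). Ireb2, a regulator of iron uptake, fell with proline by −0.66 ± 0.14 (adjusted p = 0.00457) and was higher with both by 0.85 ± 0.14 (0.000329).

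Of 20 other dioxygenases of the same superfamily 15 were tested. The shares called were 6.67% with proline, 20% with budesonide and 20% with both against proline, beside 7.88%, 6.51% and 10.1% of all genes. Jmjd1c, a relative of Kdm3a, fell with proline by −0.78 ± 0.15 (adjusted p = 0.00194), the only call of that comparison. With budesonide 3 rose and none fell: Uty (1.59 ± 0.42, adjusted p = 0.0235), Rsbn1l (0.79 ± 0.22, 0.0349) and Rsbn1 (0.64 ± 0.17, 0.0245). The Uty call ended without any 1 control library, budesonide 1 or budesonide 2 (up to 0.0847), that of Rsbn1l without control 1, control 3, budesonide 1 or budesonide 2 (up to 0.142) or with the length offset (0.1247), and that of Rsbn1 without control 1, control 2, budesonide 1 or budesonide 3 (up to 0.103) or with the length offset (0.130). With both against proline 3 rose and none fell, among them Rsbn1 (0.73 ± 0.17, adjusted p = 0.00609, called under all 13 alternatives) and Jmjd1c (0.58 ± 0.15, adjusted p = 0.0159; 0.150 with the length offset, 0.0693 without proline 1, 0.0539 without proline 2, 0.0572 without both 2 and 0.0677 without both 3). Of 23 enzymes and subunits that lay down the opposing methyl marks, all tested, 1 rose and 4 fell with proline, 2 rose and 1 fell with budesonide, and 4 rose and none fell with both against proline. These were 21.7%, 13% and 17.4% of the 23, beside the same shares of all genes as above. Setd2, which methylates histones along transcribed genes, fell with proline by −0.79 ± 0.17 (adjusted p = 0.00423). Eed, a Polycomb subunit, changed by −0.61 ± 0.14 with proline (adjusted p = 0.00501, and 0.0546 without control 2) and by 0.70 ± 0.14 for both against proline (0.00124). Eed, Suz12 and Kmt2c were lower with proline than in control and higher with both than with proline, in comparisons that share the proline libraries. The calls of Suz12 held under 7 and 6 of 13 alternatives. Of the histone demethylases among the members, only Kdm5b was called in this way. The proline calls of Kmt2c and Kdm5b ended with the length offset (adjusted p = 0.169 and 0.160). Setd2 was not called for both against proline. Kdm6a and Kdm6b, which remove the Polycomb mark, differed by 0.23 and 0.15 with proline and were not called.

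Changes varied with transcript length in these libraries. The median log2 change of both against proline was −0.11 for the 1228 genes with transcripts up to 1 kb and 0.30 for the 755 over 8 kb, and with budesonide alone it was −0.19 and 0.21. With proline against control it was −0.08 and −0.19, beside 0.05 for the 2263 genes of 1 to 2 kb. The tested members are long, with a median longest transcript of 4663 bases beside 3197 for all tested genes, and 7 of them exceed 8 kb, among them Tet1 (14369 bases), Tet2 (9179) and Kdm5b (8714). A fit with an offset for length in each library took the members' median change from 0.15 to 0.04 with budesonide and from 0.17 to 0.08 for both against proline. Of the 16 calls listed here 10 held with this offset, among them both calls of Tet2, Alkbh1 and Alkbh8, and the 6 that ended were Kdm5b (2 calls), Tet1 (2), Kdm6b and Phf8.

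**Figure D3:**
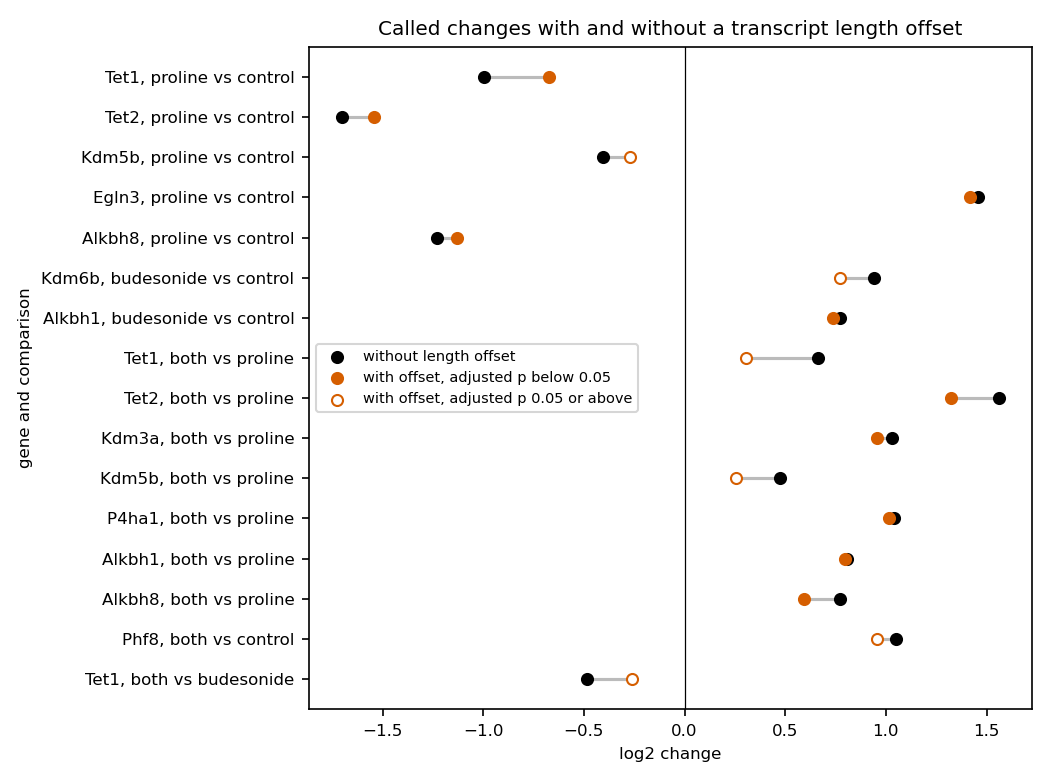
Log2 change of the 16 calls (rows, gene and comparison) without a transcript length offset (black) and with it (orange, filled where the adjusted p stayed below 0.05 and open where it did not). Grey lines join the 2 values, and the widest gap is that of Tet1 for both against proline, from 0.66 to 0.30.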

How the data were processed

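Gene expression was measured by 3′ end sequencing of polyadenylated RNA (QuantSeq), per the labels' protocols, so that a transcript gives about 1 tag whatever its length. GRCm39 is the build in the submitters' processing notes, which list as tools featureCounts 2.0, STAR 2.7.5c, cutadapt 2.5, bcl2fastq and DESeq2. How multi-mapping reads and strand were handled, and which annotation was used, is not given in the sources used here. The authors deposited raw counts for 53819 symbols, with 5299432 to 15921283 counts per library. A second table, of scaled counts, was not used.

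The deposited counts went into edgeR 4.0.16 under R 4.3.3 (filterByExpr with minimum count 10 and total 15, TMM, glmQLFit and glmQLFTest, two-sided, all 12 libraries with 1 coefficient per group, 8 residual degrees of freedom, Benjamini-Hochberg over 13852 genes). The SE was taken as the size of the log2 change divided by the root of the F statistic. In simulated data with the proline comparison changed, on 13852 genes, 55% of genes with a log2 change of 1 and 96% with 2 were recovered. The changed genes were drawn only from those above a minimum level, so these shares do not hold for genes with few counts. The members and lists were chosen with earlier results of these data known. Members called in a comparison are given library by library, and of each pathway list some called genes are named. Those named are not always the called genes of largest change. Among those left out are Ftl1 (adjusted p = 0.0237, held under 8 of 13 alternatives) and Ndrg1 (0.00211, held under 13 of 13). Both were higher with both compounds than with proline. Library-by-library values of some members and genes not called, and the changes of the stem cell and other cell type markers named, were added after their values were seen. Alternatives were RLE scaling, DESeq2 1.42.0, no filter, a replicate block, a lowess length offset (GENCODE M21 lengths), fewer libraries, and each library left out.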

Additional observations from a re-analysis of the deposited data

Results flagged for a closer look

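Slc2a3 was the 1 gene of the pathway lists whose proline effect differed with and without budesonide in the test of the interaction itself. The interaction was 0.80 ± 0.16 on the log2 scale (SE; adjusted p = 0.0180 in edgeR). Proline changed Slc2a3 by -0.46 ± 0.12 without budesonide (adjusted p = 0.0128, which ended as a call without control 3, at 0.0647, or proline 1, at 0.0521), while cells with both compounds stood at 833 ± 113 CPM beside 659 ± 60.2 with budesonide alone (SD, n = 3). The interaction was not called without control 3 and budesonide 3 together (0.0623), proline 1 (0.0528), budesonide 1 (0.0598), both 1 (0.0548) or both 3 (0.0714). Groups of 3 libraries are too small for a test of single outlying libraries.

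The stem cell markers Esrrb, Nanog and Zfp42 also had a proline effect that differed with and without budesonide in the test of the interaction itself. The interaction was 1.55 ± 0.19 for Esrrb (SE; adjusted p = 0.000162 in edgeR), 1.01 ± 0.20 for Nanog (0.0173) and 1.56 ± 0.23 for Zfp42 (0.000949). The calls of Esrrb and Zfp42 held under all 18 alternatives run for each. That of Nanog ended without control 1 (0.0726), proline 1 (0.073), proline 3 (0.0666), budesonide 2 (0.0579) or both 1 (0.0548).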

How the results depend on the processing

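Of the 16 calls of members, 168 of 208 refits kept the call, 40 lost it and none changed direction. The number of members called was 5 with proline (3 to 5 when each library was left out in turn), 2 with budesonide (1 to 3), 7 for both against proline (5 to 7), 1 for both against control (0 to 2), 1 for both against budesonide (0 to 1), 0 for the interaction (0 to 1) and 10 among the 4 groups (6 to 12). With budesonide it was 7 in DESeq2, and 1 without control 3 and budesonide 3 together or with only the libraries compared. For both against control it was 4 in DESeq2, 3 with no low-count filter, 2 with the replicate block and 3 without control 3 and budesonide 3. For both against budesonide it was 2 in DESeq2, with no filter, and without control 3 and budesonide 3, and 0 with the replicate block or the length offset. For the interaction it was 3 in DESeq2, 1 with no filter and 1 without control 3 and budesonide 3.

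Over all genes the counts were 1091 with proline (674 to 887 when each library was left out), 902 with budesonide (620 to 809; 575 without control 3 and budesonide 3, 493 with only the libraries compared), 1399 for both against proline (836 to 1095), 993 for both against control (535 to 789), 203 for both against budesonide (80 to 171; 435 in DESeq2, 354 with no filter, 128 with the replicate block, 120 with only the libraries compared), 65 for the interaction (44 to 89; 162 in DESeq2, 134 with no filter) and 2822 among the 4 groups (2215 to 2852). The causes were not tested. Replicate numbers did not pair the libraries: same-numbered libraries correlated at -0.0767 to 0.0529 in their deviations from the group means, and 3 of 12 correlated best with their own number. Of the 86 calls of pathway genes, 34 held under every alternative run for them and none changed direction. Members with few counts, such as Tet3, Phf2, P4ha2, Riox2 and Kdm8, have wide errors, so changes of these genes may not be detectable at this depth.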
